A study of Homo sapiens with 5 samples.

Results

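The cyclin-dependent kinase (CDK) inhibitor genes of HCT116 cells were followed across knockdown of the transcription factors SP1 and SP3. The set holds 7 genes chosen by symbol from the 20030 genes listed in each library. CDKN1A, CDKN1B and CDKN1C form the CIP/KIP family, and CDKN2A, CDKN2B, CDKN2C and CDKN2D form the INK4 family. HCT116 is a human colorectal cancer cell line of epithelial origin. There was 1 library of cells given an siRNA against SP1, 1 of cells given an siRNA against SP3, 1 of cells in which both genes were targeted, and 2 control libraries. An siRNA is a short RNA duplex that directs cleavage of a matching transcript. The labels call the reference libraries control and give neither what those cells received nor the sequence, dose and timing of the siRNAs. Because each knockdown is 1 library, its differences could not be checked in a repeat. The labels do not show the 2 controls to be separate cultures. The p-values below therefore reflect nothing but the spread between these 2 control libraries, shared over genes, and that spread may be technical.

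CDK inhibitors are brakes of the cell cycle. INK4 proteins bind CDK4 and CDK6 and keep them from cyclin D, while CIP/KIP proteins bind complexes of cyclins with CDK2 and related kinases, which then phosphorylate the retinoblastoma protein less. CDKN1A (p21) is induced by many forms of stress, CDKN1B (p27) is set largely by protein turnover, CDKN1C (p57) is an imprinted gene, and CDKN2B (p15) is a target of TGF-beta signalling. SP1 and SP3 are zinc finger factors of one family that bind GC boxes, the GC-rich elements with the core letters GGGCGG, and GC boxes close to the start of CDKN1A and of CDKN2B have long been studied in human cells.

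Promoter windows of 300 bases, 250 before to 50 after a RefSeq transcription start (GRCh38.p14), were available for 6 of the 7 genes, in 9 windows. The letters GGGCGG, read on both strands so that CCGCCC on the printed strand also counts, and with overlapping matches counted apart, occurred 19 times in 7 of these 9 windows. They occur at least once in 45.0% of all 35116 such windows, and 9.06% of all windows hold 4 or more. The windows of the 4 genes below are shown because CDKN1A, CDKN2C and CDKN2D had, with CDKN1C, the widest spread over the libraries, and CDKN2B was higher in every knockdown. Capitals mark GGGCGG or CCGCCC. The windows are chr6:36678464-36678763 on the plus strand for CDKN1A, chr1:50968456-50968755 on the plus strand for CDKN2C, chr19:10568930-10569229 on the minus strand for CDKN2D and chr9:22009256-22009555 on the minus strand for CDKN2B.
CDKN1A: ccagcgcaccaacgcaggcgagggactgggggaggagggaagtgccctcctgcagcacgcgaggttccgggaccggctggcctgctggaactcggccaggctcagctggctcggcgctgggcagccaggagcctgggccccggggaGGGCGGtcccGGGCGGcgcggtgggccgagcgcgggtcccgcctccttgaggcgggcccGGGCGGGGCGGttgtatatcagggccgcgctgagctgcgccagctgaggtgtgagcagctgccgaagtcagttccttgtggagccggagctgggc
CDKN2C: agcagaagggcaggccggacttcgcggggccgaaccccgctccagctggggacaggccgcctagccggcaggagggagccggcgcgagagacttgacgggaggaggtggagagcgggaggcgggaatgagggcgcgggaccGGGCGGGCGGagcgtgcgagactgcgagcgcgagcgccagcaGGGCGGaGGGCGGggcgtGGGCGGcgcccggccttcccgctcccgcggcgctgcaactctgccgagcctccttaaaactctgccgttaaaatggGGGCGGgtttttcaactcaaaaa
CDKN2D: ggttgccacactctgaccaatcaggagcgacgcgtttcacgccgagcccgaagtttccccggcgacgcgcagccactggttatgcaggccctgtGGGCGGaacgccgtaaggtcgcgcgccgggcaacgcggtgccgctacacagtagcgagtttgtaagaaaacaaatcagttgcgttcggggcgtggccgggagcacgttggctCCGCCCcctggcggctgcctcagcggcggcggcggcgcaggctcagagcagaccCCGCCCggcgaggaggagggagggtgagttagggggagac
CDKN2B: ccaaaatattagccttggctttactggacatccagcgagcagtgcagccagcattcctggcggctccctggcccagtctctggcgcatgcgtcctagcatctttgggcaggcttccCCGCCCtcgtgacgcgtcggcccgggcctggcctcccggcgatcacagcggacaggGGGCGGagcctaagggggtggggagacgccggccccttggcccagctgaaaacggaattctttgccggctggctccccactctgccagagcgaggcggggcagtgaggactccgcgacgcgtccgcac
The CDKN1A window held 4 matches, all on the printed strand. The CDKN2C window held 6, also all on the printed strand, while the other 2 windows of CDKN2C, at starts upstream and downstream, held 0 and 1. CDKN2D had 3 matches, 1 on the printed strand and 2 on the other, and CDKN2B had 1 on each strand. Not printed are CDKN1B with 1 match, and the 2 windows of CDKN2A with 2 and 0. The longer run GGGGCGGGG was in 0 of the 9 windows, against 15.7% of all windows. A match of letters is a description of these windows and says nothing of binding.

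Counted reads numbered 14678068 to 15970519 per library. A level of 1 FPKM was reached by 10654 to 11232 genes, FPKM being the fragments per kilobase of transcript scaled by library depth. Knockdown of the targeted transcripts was checked first. SP1 was at 15.8 FPKM with the SP1 siRNA and 16.1 FPKM with both siRNAs, against 36.6 and 37.2 FPKM in the controls. SP3 stood at 5.42 FPKM with the SP3 siRNA and 6.67 FPKM with both, against 13.3 and 13.0 FPKM in the controls. SP1 was also lower with the SP3 siRNA, at 27.5 FPKM. Of 11 epithelial markers 7 reached 1 FPKM in each knockdown library and 8 in each control, and CDX1 was at 0 in all 5. Marker counts stand beside the shares of all tested genes called. These were 28.8% lower and 36.5% higher with the SP1 siRNA, 32.1% and 29.6% with the SP3 siRNA, and 31.1% and 31.9% with both. Of 8 epithelial markers tested, CDH1, CDX2, CLDN4 and KRT18 fell in all 3 knockdown libraries, while 2 rose with the SP1 siRNA, 2 with the SP3 siRNA and 3 with both. KRT18 was at 408, 284 and 153 FPKM in the knockdown libraries, against 750 and 740 FPKM in the controls. The summed level of 9 leukocyte markers was 58.7 to 94.8 FPKM in the knockdown libraries and 78.4 to 80.3 FPKM in the controls. CD68 made up most of it. In each control 5 of the 9 reached 1 FPKM and 0 were at 0 FPKM. With the SP1 siRNA, the SP3 siRNA and both, 2, 1 and 1 reached 1 FPKM. TYROBP, CD3E and MS4A1 were at 0 in every knockdown library. Of 6 tested, 4 fell and ITGAM rose with the SP1 siRNA, 5 fell and CD68 rose with the SP3 siRNA, and 4 fell and CD68 rose with both. CD68 was at 56.2, 94.1 and 75.3 FPKM in these knockdown libraries, against 61.9 and 58.7 FPKM in the controls. The summed level of 8 fibroblast and endothelial markers was 4.47 to 8.39 FPKM in the knockdowns and 9.28 to 9.30 FPKM in the controls. The part of these markers in the results was not tested. In bulk RNA, fewer cells with a transcript and less of it per cell cannot be told apart.

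All 7 genes were detected in every library and all 7 passed the filter for testing, 1 FPKM or more in at least 1 library. Levels per length spanned from CDKN1A, at 329 to 343 FPKM in the controls, down to CDKN2C, at 2.13 to 2.21 FPKM. In both controls the order from the highest was CDKN1A, CDKN1C, CDKN2D, CDKN1B, CDKN2A, CDKN2B and CDKN2C. The neighbours CDKN1C and CDKN2D were close in the controls, at 36.0 ± 0.741 and 33.3 ± 2.16 FPKM (SD, n = 2), and so were CDKN2A and CDKN2B, at 7.36 ± 0.465 and 5.42 ± 0.536 FPKM. The order changed with the knockdowns. With the SP1 siRNA CDKN1B came above CDKN1C and CDKN2D, and in all 3 knockdown libraries CDKN2B came above CDKN2A. The ratio of the highest to the lowest of the 5 libraries was 7.30 for CDKN2C, 5.38 for CDKN1C, 3.72 for CDKN1A, 3.01 for CDKN2D, 2.04 for CDKN2B, 1.65 for CDKN1B and 1.56 for CDKN2A.

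**Figure D1:**
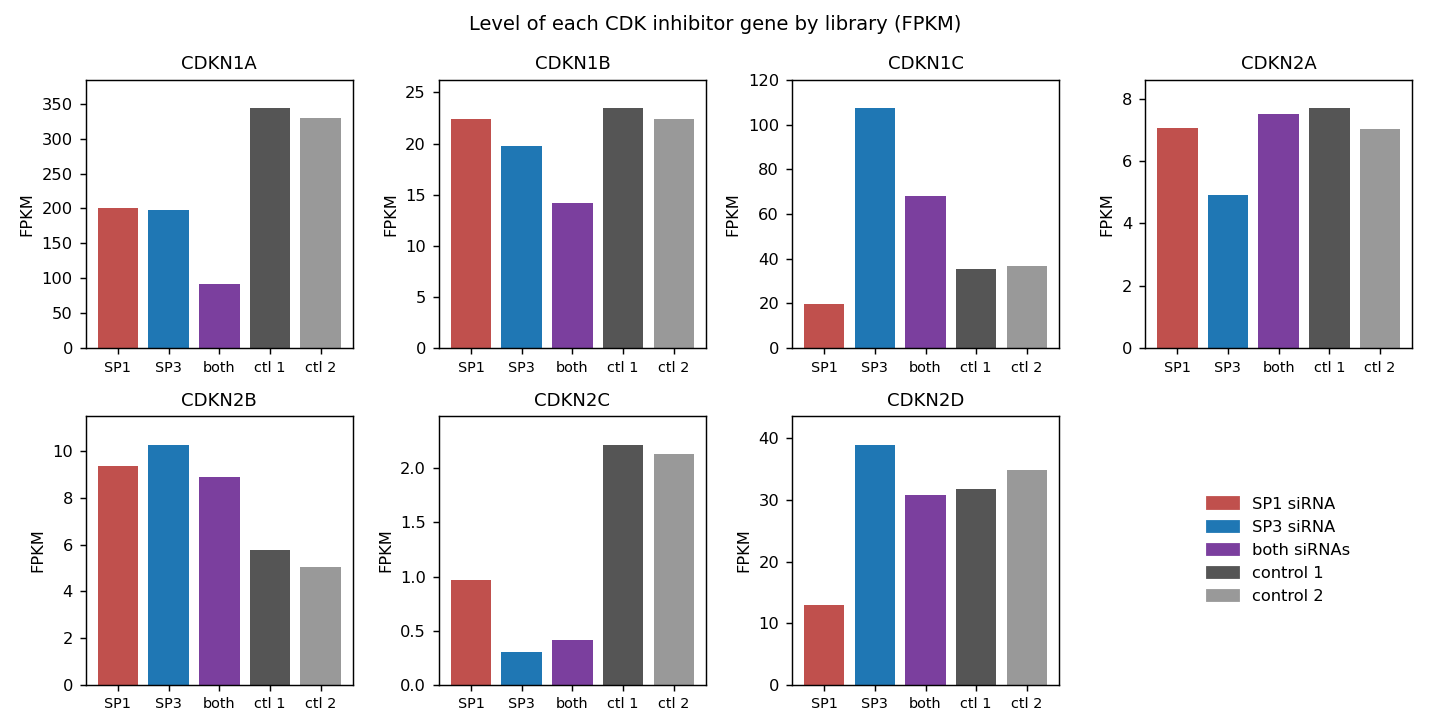
Level of each CDK inhibitor gene in FPKM (vertical axis, from 0, a scale per gene) in the 5 libraries, 1 bar per library: SP1 siRNA, SP3 siRNA, both siRNAs, control 1 and control 2. CDKN1A is lowest with both siRNAs at 92.3 FPKM, CDKN1C is highest with the SP3 siRNA at 107 FPKM, and CDKN2B is above both controls in all 3 knockdown libraries.

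CDKN1A encodes p21, which binds cyclin and CDK complexes and the replication clamp PCNA. It stood at 200 FPKM with the SP1 siRNA, 198 FPKM with the SP3 siRNA and 92.3 FPKM with both, against 343 FPKM in control 1 and 329 FPKM in control 2. Each knockdown library was below both controls, and the library with both siRNAs was below each single one. The SP1 siRNA left 59.6% of the control level (95% exact interval 58.1 to 61.0%, counting error alone), the SP3 siRNA 58.8% (57.4 to 60.3%) and both together 27.5% (26.5 to 28.4%). On the log2(FPKM + 1) scale CDKN1A fell by 0.74 ± 0.06 (SE) with the SP1 siRNA (limma, adjusted p = 2.55e-08) and fell by 0.76 with the SP3 siRNA (limma, adjusted p = 2.34e-08). With both siRNAs it fell by 1.85 (limma, adjusted p = 2.48e-12), rank 45 from the lowest among 11728 tested genes. The falls held in a model in which the effects of the SP1 and SP3 siRNAs add up, the additive model, with values of -0.89, -0.91 and -1.80. The CDKN1A window above held 4 letter matches within 104 bases before the start, and whether they have a part in these falls was not tested.

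CDKN1C, the p57 gene of the same family, moved in opposite directions with the single siRNAs. It stood at 19.9 FPKM with the SP1 siRNA, 107 FPKM with the SP3 siRNA and 68.1 FPKM with both, against 35.5 and 36.5 FPKM in the controls. The SP1 siRNA library was below both controls and the other knockdown libraries were above them. These levels were 55.3% (50.4 to 60.5%), 298% (282 to 314%) and 189% (178 to 201%) of the control mean. CDKN1C fell by 0.82 ± 0.07 with the SP1 siRNA (limma, adjusted p = 4.43e-08), rose by 1.55 with the SP3 siRNA (limma, adjusted p = 6.58e-11) and rose by 0.90 with both (limma, adjusted p = 1.84e-08). All 3 calls held in the additive model, at -0.75, 1.62 and 0.87. Between the single knockdowns the level differed 5.38-fold, higher with the SP3 siRNA, a log2 difference of 2.37 ± 0.08 (limma, adjusted p = 5.59e-12).

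CDKN1B, the p27 gene, varied little with the single siRNAs and was lower with both. It stood at 22.4 FPKM with the SP1 siRNA, 19.7 FPKM with the SP3 siRNA and 14.2 FPKM with both, against 23.4 and 22.4 FPKM in the controls. The library with both siRNAs was the lowest, at 62.1% of control (56.2 to 68.4%). CDKN1B fell by 0.65 ± 0.08 there (limma, adjusted p = 3.03e-06) and fell by 0.21 with the SP3 siRNA (limma, adjusted p = 0.0293). With the SP1 siRNA the log2 difference was -0.03, with a 95% interval of -0.20 to 0.13. In the additive model neither fall passed the threshold (-0.59 and -0.38), so the calls on CDKN1B rest on the model with 1 mean per group.

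Among the INK4 genes, CDKN2D (p19INK4d) was lower with the SP1 siRNA and near the controls or above them elsewhere. It stood at 12.9 FPKM with the SP1 siRNA, 38.9 FPKM with the SP3 siRNA and 30.8 FPKM with both, against 31.8 and 34.8 FPKM in the controls. The SP1 siRNA library held 38.7% of the control level (34.0 to 44.0%), the SP3 siRNA library 117% (107 to 127%) and the library with both 92.4% (84.1 to 101%). CDKN2D fell by 1.30 ± 0.08 with the SP1 siRNA (limma, adjusted p = 1.68e-09), rank 240 from the lowest of the tested genes. It rose by 0.22 with the SP3 siRNA (limma, adjusted p = 0.0214), a call that was lost when libraries were scaled by the median of gene ratios. With both siRNAs the difference was -0.11, with a 95% interval of -0.27 to 0.05. In the additive model the values with the SP1 siRNA and the SP3 siRNA were -0.88 and 0.64, and neither passed.

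CDKN2C (p18INK4c) was the gene with the fewest reads. It stood at 0.972 FPKM with the SP1 siRNA, 0.303 FPKM with the SP3 siRNA and 0.412 FPKM with both, against 2.21 and 2.13 FPKM in the controls. Behind these values were 37, 12 and 15 reads in the knockdown libraries, against 86 and 84 reads in the controls. Every knockdown library was below both controls, at 44.8% (30.5 to 64.2%) with the SP1 siRNA, 14.0% (7.07 to 25%) with the SP3 siRNA and 19% (10.4 to 32.2%) with both. On the log2(FPKM + 1) scale, which understates the change of a gene this low, CDKN2C fell by 0.69 ± 0.13 with the SP1 siRNA (limma, adjusted p = 0.000367), fell by 1.28 with the SP3 siRNA (limma, adjusted p = 8.63e-07) and fell by 1.17 with both (limma, adjusted p = 2.2e-06). The falls with the SP3 siRNA and with both also passed in the additive model, at -0.94 and -1.28, and the fall with the SP1 siRNA did not, at -0.34. The CDKN2C window with 6 letter matches, printed above, belongs to 1 of its 3 annotated starts, and the files do not say which start was used. Whether the matches have a part in the falls was not tested.

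CDKN2B (p15INK4b) was the INK4 gene that rose in every knockdown library. It stood at 9.38 FPKM with the SP1 siRNA, 10.3 FPKM with the SP3 siRNA and 8.91 FPKM with both, against 5.79 and 5.04 FPKM in the controls. These were 173% (155 to 194%), 190% (170 to 211%) and 165% (147 to 185%) of the control mean. CDKN2B rose by 0.70 ± 0.10 with the SP1 siRNA (limma, adjusted p = 2.61e-05), by 0.81 with the SP3 siRNA (limma, adjusted p = 6.13e-06) and by 0.63 with both (limma, adjusted p = 7.44e-05). In the additive model the differences were 0.32, 0.44 and 0.76 and none passed the threshold.

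CDKN2A lies beside CDKN2B on chromosome 9 and gives rise to p16INK4a and, from another first exon and reading frame, to ARF, which restrains MDM2. The files have 1 row for the gene, so the transcripts of p16INK4a and ARF are not separated. CDKN2A stood at 7.05 FPKM with the SP1 siRNA, 4.92 FPKM with the SP3 siRNA and 7.51 FPKM with both, against 7.69 and 7.03 FPKM in the controls. The SP3 siRNA library was below both controls, and the other knockdown libraries lay between them. The SP3 siRNA library held 66.8% of the control level (59.0 to 75.5%). CDKN2A fell by 0.50 ± 0.10 there (limma, adjusted p = 0.00055), and its additive-model value of -0.25 did not pass. With the SP1 siRNA the difference was -0.05 (95% interval -0.27 to 0.16) and with both siRNAs 0.03 (-0.19 to 0.24). CDKN2A and CDKN2B both overlap the antisense gene CDKN2B-AS1 in GENCODE 29, and no source used here says whether strand was kept, so reads of that gene cannot be told apart from theirs.

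The counts over the 7 genes are read against how often any gene was called, which was often. With the SP1 siRNA 4 of the 7 genes fell and 1 rose, against 28.8% of all tested genes called lower and 36.5% called higher. With the SP3 siRNA 4 fell and 3 rose, against 32.1% lower and 29.6% higher among all genes. With both siRNAs 3 fell and 2 rose, against 31.1% lower and 31.9% higher. The median log2 difference of the 7 genes was -0.69 with the SP1 siRNA, -0.21 with the SP3 siRNA and -0.11 with both, beside 0.06, -0.02 and 0.01 over all tested genes. In the additive model 2 of the 7 genes were called with the SP1 siRNA, against 7.67% of all genes, 3 with the SP3 siRNA against 15.4%, and 3 with both against 16.8%. With no filter on low values limma called 3 of the 7 genes with the SP3 siRNA, against 2106 of 17125 genes in that setting. The 3 comparisons share the 2 control libraries.

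**Figure D2:**
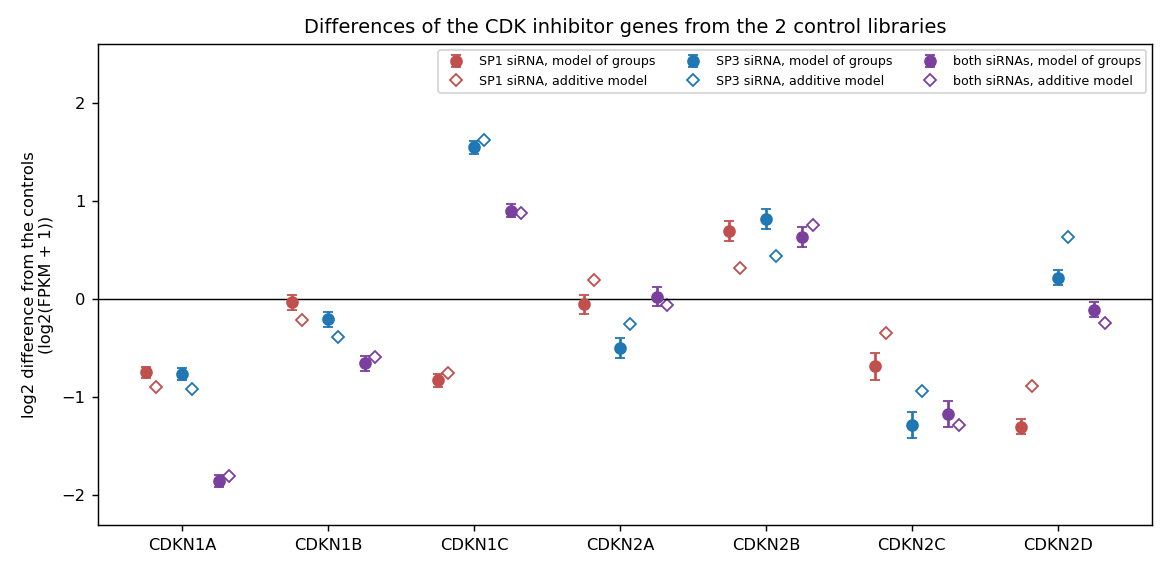
Log2 differences from the controls on the log2(FPKM + 1) scale (vertical axis) for the 7 CDK inhibitor genes. Filled circles are the model with 1 mean per group, with bars of 1 SE, and open diamonds the additive model, with 1 colour per siRNA treatment. CDKN1A lies at -1.85 with both siRNAs, and CDKN1C at -0.82 with the SP1 siRNA and 1.55 with the SP3 siRNA. The 2 models lie furthest apart for CDKN2B, CDKN2C and CDKN2D. They also differ for CDKN2A, at -0.05 and 0.19 with the SP1 siRNA, and by less for the other genes.

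A count that needs no estimate of spread asked which genes were at least 1.5-fold from each control. With the SP1 siRNA CDKN1A, CDKN1C, CDKN2C and CDKN2D were lower, 4 of 7 against 14.5% of all tested genes, and CDKN2B was higher, 1 of 7 against 18.9%. With the SP3 siRNA CDKN1A and CDKN2C were lower, 2 of 7 against 17.9%, and CDKN1C and CDKN2B were higher, 2 of 7 against 13.2%. With both siRNAs CDKN1A, CDKN1B and CDKN2C were lower, 3 of 7 against 16.8%, and CDKN1C and CDKN2B were higher, 2 of 7 against 15.0%. CDKN1A, CDKN2C and CDKN2B were thus past the fold in the same direction in all 3 knockdown libraries. CDKN2A was past it in none.

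Adding the second siRNA was examined by setting the library with both against each single one. Against the SP1 siRNA library, CDKN1A, CDKN1B and CDKN2C were lower with both siRNAs, 3 of 7 against 26.4% of all genes, and CDKN1C and CDKN2D were higher, 2 of 7 against 21.0%. The call of CDKN2C was lost with limma-voom on recovered reads. CDKN1A fell by 1.11 ± 0.07 (limma, adjusted p = 8.57e-09), to 46.1% of its level with the SP1 siRNA. CDKN1C was 3.42-fold higher with both than with the SP1 siRNA (log2 difference 1.72, limma, adjusted p = 5.62e-10), and CDKN2D was 2.39-fold higher (1.19, limma, adjusted p = 8.41e-08). CDKN2B differed by -0.07 (95% interval -0.32 to 0.18) and CDKN2A by 0.08 (-0.17 to 0.33).

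Against the SP3 siRNA library, CDKN1A, CDKN1B, CDKN1C and CDKN2D were lower with both siRNAs, 4 of 7 against 15.1% of all genes, and CDKN2A was higher, 1 of 7 against 17.9%. CDKN1A fell by 1.09 (limma, adjusted p = 4.16e-08), to 46.7% of its level with the SP3 siRNA. CDKN1C fell by 0.65 (limma, adjusted p = 2.05e-05), CDKN1B fell by 0.44 (limma, adjusted p = 0.00147) and CDKN2D fell by 0.33 (limma, adjusted p = 0.0103). CDKN2A was 1.53-fold higher with both, a log2 difference of 0.52 (limma, adjusted p = 0.00311). CDKN2C differed by 0.12 (95% interval -0.21 to 0.45) and CDKN2B by -0.18 (-0.44 to 0.07).

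The single knockdowns were then set against each other. CDKN1C and CDKN2D were higher with the SP3 siRNA than with the SP1 siRNA, 2 of 7 against 26.5% of all genes, and CDKN2A and CDKN2C were lower, 2 of 7 against 36.2%. CDKN2D differed 3.01-fold (log2 difference 1.52 ± 0.09, limma, adjusted p = 2.03e-09). CDKN2C with the SP3 siRNA was at 31.2% of its level with the SP1 siRNA (log2 difference -0.60, limma, adjusted p = 0.00349), on 12 and 37 reads. CDKN1A did not pass, at -0.02 with a 95% interval of -0.16 to 0.12, CDKN1B had -0.17 (-0.36 to 0.02) and CDKN2B 0.12 (-0.13 to 0.37).

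Whether both siRNAs together gave the sum of the single differences was tested as an interaction, the difference with both minus that sum. For CDKN1A the sum was -1.51 and the value with both -1.85, further below the controls than the sum (interaction -0.345 ± 0.09 SE, limma, adjusted p = 0.00561). For CDKN1B the sum was -0.24 and the value with both -0.65 (interaction -0.411, limma, adjusted p = 0.012). CDKN2B had a sum of 1.51 and a smaller rise of 0.63 with both (interaction -0.882, limma, adjusted p = 0.000457). CDKN2D had a sum of -1.08 and -0.11 with both (interaction 0.973, limma, adjusted p = 1.41e-05). CDKN2C had a sum of -1.97 and -1.17 with both (0.802, limma, adjusted p = 0.00614), a call that was lost with limma-voom on recovered reads. From CDKN2C controls of 2.21 and 2.13 FPKM, even 0 FPKM cannot reach a log2(FPKM + 1) difference of -1.97. The positive sign of the CDKN2C interaction was thus fixed by the scale, and no conclusion is drawn from it. CDKN2A had a sum of -0.55 and 0.03 with both (0.579, limma, adjusted p = 0.00805). CDKN1C did not pass, with a sum of 0.72, 0.90 with both and a 95% interval of the interaction of -0.04 to 0.39. In all, 3 of 7 interactions were positive, against 18.5% of all genes, and 3 were negative, against 21.0%. With no filter on low values limma called 0 of the 7 interactions. It also called 0 of the 7 differences of both siRNAs from each single one. Of the members, 6 interactions, 5 differences from the SP1 siRNA and 4 from the SP3 siRNA had an unadjusted p under 0.05. Over all 17125 genes limma called 0 in each of these comparisons. An unadjusted p under 0.05 was found there for 5376, 6063 and 4443 genes, in the same order.

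**Figure D3:**
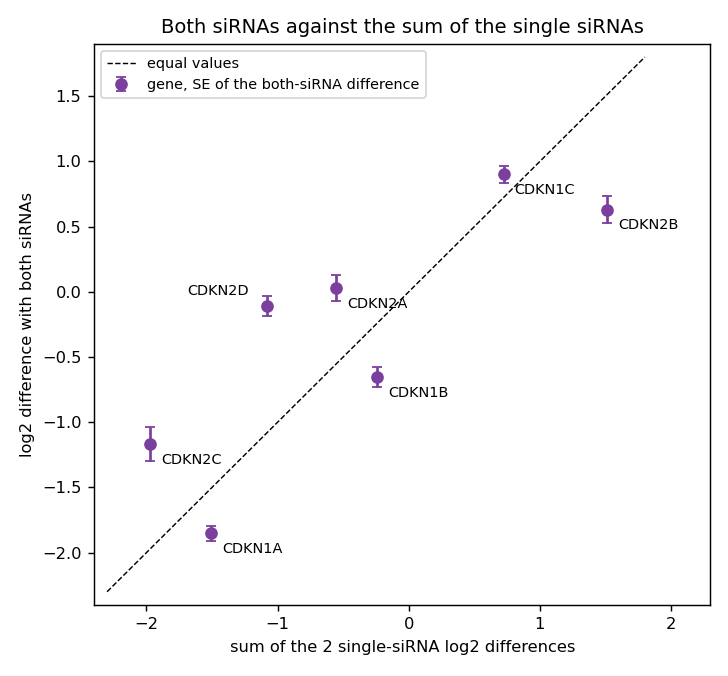
Log2 difference with both siRNAs (vertical axis, bars of 1 SE) against the sum of the 2 single-siRNA log2 differences (horizontal axis), 1 point per CDK inhibitor gene, with a dashed line where they are equal. CDKN1A, CDKN1B and CDKN2B lie below the line, CDKN2A, CDKN2C and CDKN2D above it, and CDKN1C closest to it. The sum for CDKN2C is lower than any level could reach on the log2(FPKM + 1) scale, so its side of the line was fixed.

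Summed over the 7 genes, the level was 273 FPKM with the SP1 siRNA, 379 FPKM with the SP3 siRNA and 222 FPKM with both, against 450 and 437 FPKM in the controls. CDKN1A made up 73.4%, 52.2% and 41.5% of it in these knockdown libraries and 76.3% and 75.3% in the controls. CDKN1C made up 7.30% with the SP1 siRNA, 28.3% with the SP3 siRNA and 30.6% with both, against 7.89% and 8.36% in the controls. Without CDKN1A the other 6 genes summed to 72.6 FPKM with the SP1 siRNA, 181 FPKM with the SP3 siRNA and 130 FPKM with both, against 106 and 108 FPKM in the controls. The ratio of CDKN1A to CDKN1C was 10.1 with the SP1 siRNA, 1.84 with the SP3 siRNA and 1.36 with both, against 9.67 and 9.0 in the controls. The 4 INK4 genes held 11.1%, 14.4% and 21.4% of the sum in the knockdown libraries and 10.6% and 11.2% in the controls.

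**Figure D4:**
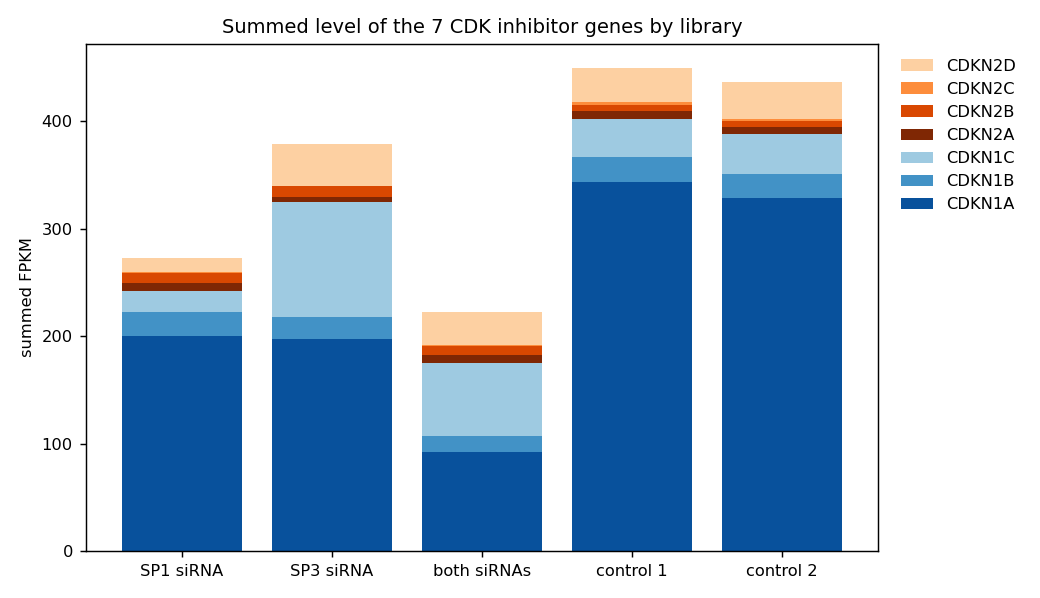
Summed level of the 7 CDK inhibitor genes in FPKM (vertical axis, from 0) in the 5 libraries, stacked by gene, with CIP/KIP genes in blue and INK4 genes in orange and brown. The sum is 273, 379 and 222 FPKM with the SP1 siRNA, the SP3 siRNA and both, against 450 and 437 FPKM in the controls, and the CDKN1C block widens with the SP3 siRNA and with both.

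For the gene lists that follow, the share of all tested genes called lower and higher was 28.8% and 36.5% with the SP1 siRNA, 32.1% and 29.6% with the SP3 siRNA, and 31.1% and 31.9% with both, and the medians over all tested genes were 0.06, -0.02 and 0.01. Of the cyclins and CDKs that the inhibitors bind more were called lower than higher. Of 11 tested genes of a list of 13, 9 fell and 1 rose with the SP1 siRNA, 10 fell and 1 rose with the SP3 siRNA, and 7 fell and 2 rose with both, with median log2 differences of -0.61, -0.64 and -0.42. Cyclin D1 (CCND1), the partner of CDK4 and CDK6, stood at 65.8 FPKM with the SP1 siRNA, 281 FPKM with the SP3 siRNA and 77.5 FPKM with both, against 359 and 358 FPKM in the controls. CDK6, a kinase that INK4 proteins bind, stood at 10.2, 6.38 and 4.94 FPKM in these knockdown libraries, against 14.1 and 13.7 FPKM in the controls. CDK4 stood at 55.0, 40.2 and 50.2 FPKM in the knockdown libraries, against 62.3 and 61.4 FPKM in the controls. These genes were called lower in all 3 comparisons by limma. Cyclin E1 (CCNE1), the partner of CDK2, was the gene called higher in all 3, at 26.8, 78.2 and 55.8 FPKM, against 15.5 and 17.1 FPKM in the controls. CDK2 itself stood at 40.8, 37.2 and 50.6 FPKM, against 43.6 and 40.6 FPKM in the controls, with calls only for the SP3 siRNA (-0.17, lower) and both siRNAs (0.26, higher).

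Factors that turn over the inhibitor proteins were called in both directions, with both siRNAs at shares near those of all genes (31.1% lower, 31.9% higher). Of 15 tested, 8 fell and 2 rose with the SP1 siRNA, 7 fell and 5 rose with the SP3 siRNA, and 5 fell and 5 rose with both (medians -0.26, -0.13 and -0.01). DDB1, part of the ligase that degrades CDKN1A protein, fell in all 3 comparisons, to 56.5 FPKM with the SP1 siRNA, 55.7 FPKM with the SP3 siRNA and 45.7 FPKM with both, against 86.9 and 90.9 FPKM in the controls. SKP2, the receptor that brings CDKN1B protein to degradation, was called with the SP3 siRNA alone among the 3, where it fell by 0.56 ± 0.11 (limma, adjusted p = 0.000472), and the other differences were -0.24 and -0.18. Levels of transcripts give no measure of these proteins.

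Transcriptional regulators of the inhibitor genes were called at shares near those of all genes with the SP1 siRNA (28.8% lower, 36.5% higher) and with both (31.1% and 31.9%), and more were called lower than higher with the SP3 siRNA (32.1% and 29.6% of all genes). Of 33 tested of 34, 11 fell and 11 rose with the SP1 siRNA, 14 fell and 9 rose with the SP3 siRNA, and 11 fell and 9 rose with both (medians 0.03, -0.19 and -0.10). MYC, which represses CDKN1A and CDKN2B through ZBTB17, rose by 0.61 with the SP1 siRNA and fell by 0.99 with the SP3 siRNA and fell by 0.88 with both. The histone deacetylase HDAC1, a known repressor of CDKN1A, stood at 75.7, 77 and 90.2 FPKM in the knockdown libraries, against 32.2 and 30.4 FPKM in the controls. ID2, an inhibitor of E proteins, rose in all 3, to 91.7, 137 and 182 FPKM, against 69.4 and 66.7 FPKM in the controls.

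Downstream, among pocket proteins and E2F factors, 7 of 16 tested of a list of 17 fell and 4 rose with the SP1 siRNA, 9 fell and 3 rose with the SP3 siRNA, and 6 fell and 2 rose with both (medians -0.07, -0.28 and -0.08). Among all tested genes 28.8%, 32.1% and 31.1% were lower and 36.5%, 29.6% and 31.9% higher in these comparisons, and the same shares stand beside the counts that follow. RB1, the retinoblastoma gene, was called with the SP3 siRNA, where it fell by 0.48 ± 0.09 (limma, adjusted p = 0.00026), to 6.72 FPKM, against 9.94 and 9.65 FPKM in the controls. E2F4 fell in all 3 and TFDP1, the dimer partner of E2F factors, rose in all 3. Of 12 other brakes and accelerators of CDKs, 9 fell and 2 rose with the SP1 siRNA, 6 fell and 3 rose with the SP3 siRNA, and 5 fell and 1 rose with both (medians -0.46, -0.22 and -0.18). WEE1, the kinase that holds CDK1 inactive, fell in all 3, to 12.0, 11.1 and 11.5 FPKM, against 17.8 and 17.7 FPKM in the controls. Of 12 tested secreted factors and markers of senescence of a list of 16, 8 fell and 2 rose with the SP1 siRNA, 7 fell and 2 rose with the SP3 siRNA, and 9 fell and 0 rose with both (medians -0.58, -0.37 and -0.53). The list pools secreted factors with LMNB1, which is not one and fell in all 3, at -1.07, -1.10 and -0.69. Its counts therefore give no single direction for senescence.

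Genes next to the inhibitors in the RefSeq annotation were compared with them. CDKN1C lies in an imprinted domain on chromosome 11, and of 7 tested genes of a list of 9 from that domain, 3 fell and 1 rose with the SP1 siRNA, and 3 fell and 3 rose with the SP3 siRNA and with both, beside shares over all genes of 28.8% lower and 36.5% higher, 32.1% and 29.6%, and 31.1% and 31.9%. PHLDA2, an imprinted growth restrainer beside CDKN1C, had the same directions as CDKN1C, at 181 FPKM with the SP1 siRNA, 457 FPKM with the SP3 siRNA and 422 FPKM with both, against 218 and 262 FPKM in the controls. The channel gene KCNQ1 on the other side had the opposite directions, at 7.24, 1.45 and 2.64 FPKM, against 3.87 and 3.84 FPKM in the controls. AP1M2, next to CDKN2D, was called lower with the SP1 siRNA (-0.80) and higher with the SP3 siRNA (0.66) as CDKN2D was, and higher with both (0.20). The other 3 measured neighbours of CDKN2D were called lower with the SP3 siRNA, ATG4D at -0.43, KRI1 at -0.91 and SLC44A2 at -0.28, and KRI1 was called lower in all 3 comparisons. Before CDKN1A lie SRSF3, the nearer gene, and STK38 beyond it. SRSF3 was called only with the SP3 siRNA, lower at -0.21, and differed by 0.10 with the SP1 siRNA and -0.04 with both. STK38 was higher in all 3 knockdown libraries, where CDKN1A was lower. It stood at 12.9, 11.9 and 14.0 FPKM, against 6.69 and 5.69 FPKM in the controls. MTAP, the measured neighbour of CDKN2A and CDKN2B, rose by 0.34 with the SP1 siRNA and was called in no other comparison with the controls.

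By the distance over the 3 log2 differences from the controls among 7127 genes whose mean reached 5 FPKM, the genes nearest to each inhibitor were as follows. Among those nearest to CDKN1A were NQO1, at a distance of 0.333, and EVA1B (0.353). NQO1, a quinone reductase, stood at 17.0 FPKM with the SP1 siRNA, 13.5 FPKM with the SP3 siRNA and 8.37 FPKM with both, against 28.9 and 28.3 FPKM in the controls. CDKN1C was nearest to the histone gene HIST1H2AC (0.137), then KRTAP2-3 (0.325) and HIST2H2BE (0.326), whose 2 controls themselves differed, at 31.3 and 47.1 FPKM. CDKN2D was nearest to NDUFS3 (0.0792), ARF5 and IDH2, of which NDUFS3 and IDH2 are mitochondrial proteins. CDKN2C was nearest to FEM1A (0.102), CALD1 and ARID1A, and CDKN2B to FAM84B (0.0654), TOR4A and PHF3. CDKN2A was nearest to ENO2 (0.062), LPIN2 and PRIM1, and CDKN1B, which differed least with the single siRNAs, to TMEM222 (0.0447), SLC35F2 and LYAR. These likenesses rest on 3 differences that share their controls.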

How the data were processed

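RNA sequencing of HCT116 cells gave 5 libraries in 4 groups, per the labels. The authors deposited 1 table of FPKM values per library, with 20030 gene symbols, per the file headers. Per the submitters' processing notes, the tools were HISAT2 2.0.5, HTSeq 0.9.1, Cufflinks 2.2.1 and Trimmomatic 0.36, without role or order. A genome build and an annotation were not given in the sources used here. All members and gene lists were chosen with earlier results of these data known.

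Differences were tested with limma 3.58.1 in R 4.3.3 on log2(FPKM + 1), using empirical Bayes moderation with a mean-level trend and 1 mean per group over the 5 libraries, on the 11728 genes that reached 1 FPKM in any library. P-values were Benjamini-Hochberg adjusted over all tested genes of a comparison, with a threshold of 0.05. The 2 controls give the 1 residual degree of freedom, beside 13.98 prior degrees of freedom, and knockdown libraries are assumed to vary like the controls. The additive model had 2 residual degrees of freedom. The controls differed beyond counting error (p under 0.05) for 19.01% of genes with 20 or more control reads, and they were treated as separate libraries. The test was first run on simulated data.

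The deposited FPKM values keep counting steps, from which whole reads were recovered within 0.02 reads for 17006 of 17125 genes above 0 (99.3%), with depth set by 71 single-transcript genes of GENCODE 29. Recovered numbers are lower limits. Reads served for depth, for exact 95% intervals of the percent of control, which cover counting error only, and for a limma-voom alternative. Alternatives were a pseudocount of 0.1, no filter, a mean of at least 5 FPKM, median-ratio scaling, the additive model, leaving out a control and a fold of 2. Named genes were the members, SP1 and SP3, up to 3 genes per list and comparison with the largest called difference (mean of at least 5 FPKM), CCND1, CDK4, CDK6, CCNE1, CDK2, SKP2 and RB1, the 3 nearest genes per member, and the measured neighbours, of which the text gives a selection. Some genes and a list that the rule covers are not reported here. Genes named from the lists outside this rule, and the neighbours chosen for the text, were chosen after their values were seen. Figures were drawn with matplotlib 3.10.9.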

Additional observations from a re-analysis of the deposited data

Results flagged for a closer look

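For 6 of the 7 CDK inhibitor genes the effect of one siRNA differed according to whether the other was present, by limma's test of the interaction. The interaction, the log2 difference with both siRNAs minus the sum of the single ones, was -0.345 for CDKN1A, -0.411 for CDKN1B, 0.579 for CDKN2A, -0.882 for CDKN2B, 0.802 for CDKN2C and 0.973 for CDKN2D. For CDKN1A and CDKN1B the value with both siRNAs was further below the controls than the sum, and for CDKN2C and CDKN2D it was less far below. The sum for CDKN2C is lower than 0 FPKM would give on the log2(FPKM + 1) scale. The positive sign of its interaction was thus fixed by the scale, and no conclusion is drawn from it. The test rests on 1 library per knockdown and on a spread taken from the 2 controls, and the same test called 18.5% of all tested genes positive and 21.0% negative. With limma-voom on recovered reads 5 of the 7 were called, CDKN2C being lost. No share of all genes called by limma-voom is given here, so that count cannot be read against how often any gene passed. With no filter on low values limma called 0 of the 7, where 6 had an unadjusted p under 0.05. In that setting it called 0 of 17125 genes, and 5376 had an unadjusted p under 0.05.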

How the results depend on the processing

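Over all settings, the log2 differences of the 7 genes kept their direction except for 9 values, none of which was called with the sign turned. No filter on low values lost 24 calls and the additive model 17. In the additive model CDKN2A was at 0.19 with the SP1 siRNA and -0.056 with both against the controls, and at -0.25 for both against the SP1 siRNA. CDKN2B was at 0.44 for both against the SP1 siRNA and 0.32 against the SP3 siRNA, and CDKN2C at -0.34 against the SP3 siRNA. The additive values for both against a single siRNA repeat that model's single-siRNA values against the controls. Those turned signs thus follow from the form of the model, and the calls it lost include such repeats. With median-ratio scaling CDKN1A was at 0.035 for the SP3 siRNA against the SP1 siRNA. A pseudocount of 0.1 and a mean of at least 5 FPKM changed no call among the genes they covered, voom on recovered reads lost 2 calls of CDKN2C, its interaction and its difference of both siRNAs from the SP1 siRNA, and median-ratio scaling lost the CDKN2D rise with the SP3 siRNA.

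The additive model called 2, 3 and 3 of the 7 genes with the SP1 siRNA, the SP3 siRNA and both against the controls, against 5, 7 and 5. It called 3 for both against the SP1 siRNA, 2 for both against the SP3 siRNA and 1 for the SP3 siRNA against the SP1 siRNA, against 5, 5 and 4. Over all genes it called 900, 1805 and 1973 against the controls, then 1805, 900 and 1278, against 7666, 7225, 7387, 5566, 3871 and 7353. In the additive model, both siRNAs against the SP1 siRNA is the same test as the SP3 siRNA against the controls. Likewise, both against the SP3 siRNA is the same test as the SP1 siRNA against the controls. Their additive counts are therefore repeats by construction and no further check. With no filter on low values limma called 3 of the 7 genes with the SP3 siRNA, 2 for the SP3 siRNA against the SP1 siRNA and 0 for both against each single siRNA and for the interaction, where 5, 4 and 6 had an unadjusted p under 0.05. Over 17125 genes it then called 4180, 2106 and 3157 against the controls and 2636 for the SP3 siRNA against the SP1 siRNA, and 0 for both against the SP1 siRNA, for both against the SP3 siRNA and for the interaction, against 4630 with the filter, where 6063, 4443 and 5376 had an unadjusted p under 0.05. With a mean of at least 5 FPKM the SP1 siRNA gave 5109 calls of 7127, a count on fewer genes. The cause of the other changes was not tested. For a fold of 2 no share of all tested genes is given here, so the counts at 2-fold cannot be read against how often any gene passed. At 2-fold 2 genes in each knockdown library were past the fold from each control, against 5, 4 and 5. Leaving out either control gave 5 to 5, 4 to 5 and 5 to 5. Of the 28 differences that involve the controls, CDKN2A turned to 0.003 with the SP1 siRNA without control 1 and to -0.03 with both siRNAs without control 2, and the others kept their direction. No residual degrees of freedom are left there and no test was made. No paired analysis was possible because each knockdown has 1 library and the labels share no replicate number between groups. CDKN2C, with 12 to 86 reads, is the gene most limited by depth.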
